A study of Mus musculus with 12 samples.

Results

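The 10 genes examined were 5 glutathione transferases, Gstm1, Gstm5, Gstm6, Gstm7 and Gsta4, and 5 targets of the transcription factor NRF2, Nqo1, Hmox1, Gclc, Gclm and Srxn1. They were taken by gene symbol from the count table, and all 10 were found among its 23893 genes. Gstm7 was chosen by its counts, which were higher with topotecan than with vehicle in these libraries, so its values are a description without a test, and the other 9 were chosen as its relatives or as genes of the pathway.

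Glutathione transferases join the tripeptide glutathione to reactive compounds, which makes them easier to export, and the mu class genes (Gstm) lie side by side in one cluster. NRF2, the product of Nfe2l2, is normally bound by KEAP1 and degraded through the ubiquitin ligase scaffold CUL3. When oxidants or electrophiles modify KEAP1, NRF2 persists and acts with small MAF proteins at antioxidant response elements of genes for glutathione synthesis, conjugation and quinone and heme breakdown. In cortical cultures this program is known to be stronger in astrocytes than in neurons.

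The study asked how deletion of Top1, the gene of topoisomerase 1, compares with topotecan, a drug that traps this enzyme on DNA. Cortical neurons of C57BL6 mouse embryos (E13.5-15.5, of C57BL6/J females) were cultured, and per the study's methods all cultures carried Top1 fl/fl alleles, although the labels name the control genotype Wild-type. At 3 days in vitro (DIV) they received lentivirus with tdTomato alone (WT) or tdTomato-P2A-CRE (Top1 cKO), both from the CaMKIIα promoter, which limits expression to neurons. Glia in the dish were thus not meant to lose Top1, and per the labels not every cell was transduced. At DIV 15 they were given vehicle (Veh, 0.003% DMSO) or 300 nM topotecan (Topot, in the same vehicle) for 3 days. The 12 libraries formed 4 groups of 3, WT-Veh and WT-Topot with the tdTomato virus, and Top1 cKO-Veh and Top1 cKO-Topot with the CRE virus.

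Counts summed to between 1730164 and 4583777 per library, so 3 counts corresponded to 0.687 to 1.73 CPM (a gene's counts relative to the scaled total of its library). Top1 was at 117.0 to 163.5 CPM in the 6 tdTomato libraries and at 27.1 to 44.0 CPM in the 6 CRE libraries, so no library went against its label. Markers of excitatory cortical neurons summed to 4198 to 6019 CPM over the 12 libraries, and 12 astrocyte markers to 1486 to 7196 CPM, so the cultures also held astrocytes. Oligodendrocyte lineage markers summed to 98.5 to 297.2 CPM and endothelial and mural markers to 15.2 to 44.6 CPM, while microglia markers reached at most 20.2 CPM and proliferation markers at most 5.70 CPM, and Mag had no count and Cldn5 at most 1 count in any library. In bulk RNA, fewer cells of a type and less RNA per cell cannot be told apart.

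A gene was called when edgeR's quasi-likelihood test gave an adjusted p of at most 0.01 over all genes. Libraries with the same replicate number deviated together, so the value from a fit blocked on replicate number is added where it changes a call. CPM values are scaled by the TMM method and log2 fold changes are followed by their standard error (SE). The comparisons share libraries with each other and are therefore not independent.

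The levels of the 10 genes differed widely before treatment. Per kilobase of annotated exon, WT-Veh cells had the highest level of Gstm1, at 88.6 ± 54.4 CPM per kb (SD, n = 3), and of Srxn1, at 77.3 ± 23.6. Hmox1 followed at 49.7 ± 33.1 CPM per kb and Gstm5 at 31.2 ± 11.1, and neighbours in the order of these 4 differed by less than the larger SD. Gclc (14.9 ± 4.79), Gsta4 (10.97 ± 4.30) and Gclm (9.90 ± 2.58) formed a middle group that likewise did not separate beyond the SD. Nqo1 stood at 4.28 ± 2.09, and Gstm7 (1.91 ± 0.831) and Gstm6 (1.37 ± 0.616) were the lowest. After topotecan, WT-Topot cells had 16.4 ± 12.3 CPM per kb of Gstm7, close to the 16.5 ± 1.704 of Gclc, and 41.9 ± 13.2 of Gsta4, whereas Gstm1 was still first at 105.2 ± 41.8.

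**Figure D1:**
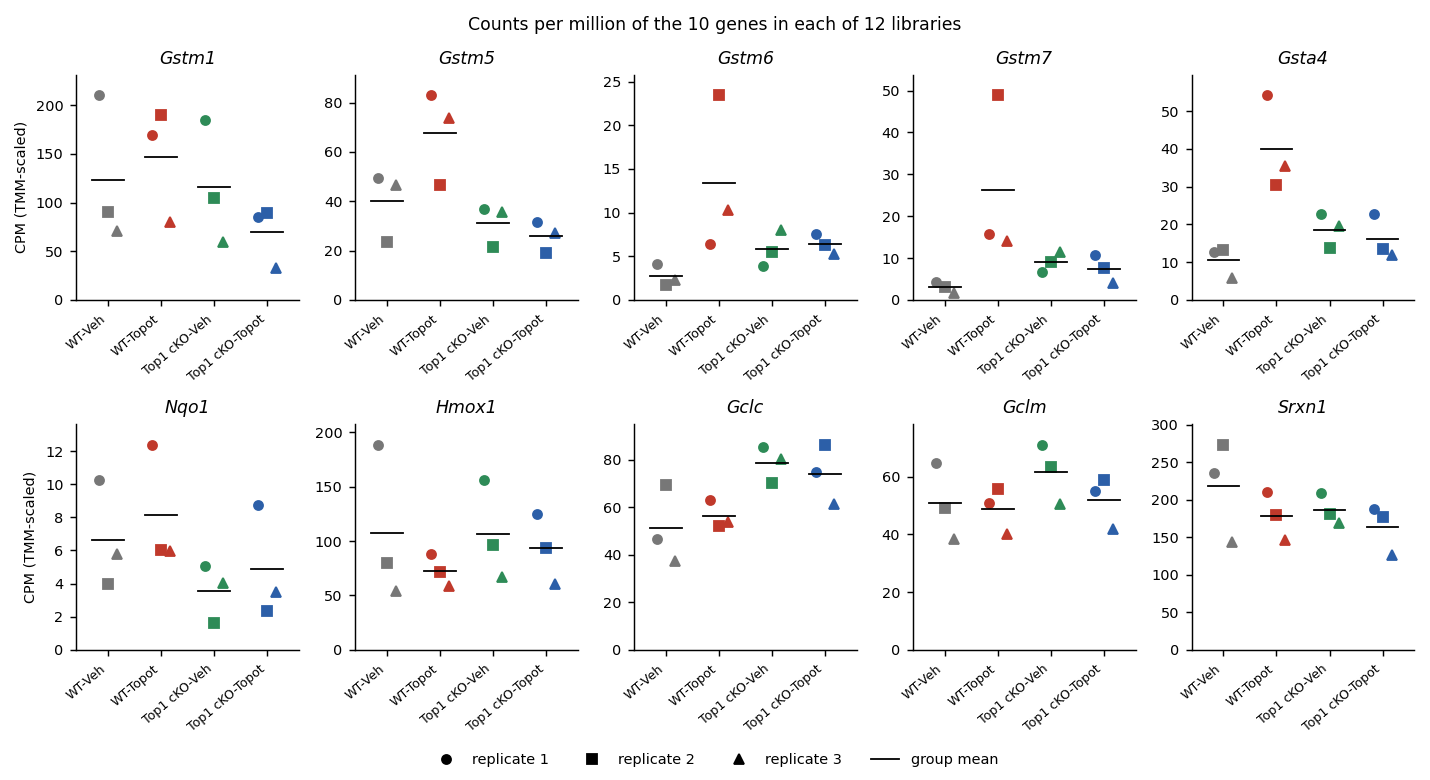
TMM-scaled CPM of the 10 genes (y axes from 0, one scale per gene) in the 12 libraries, by group on the x axis, with symbols for replicate numbers and a line at the group mean. Gstm7, Gstm6 and Gsta4 are higher in each WT-Topot library than in each WT-Veh library, and Hmox1 is highest in replicate 1 of every group.

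Topotecan raised 2 of the 9 tested genes in WT cells, Gsta4 and Gstm6, both glutathione transferases, and none of the 5 NRF2 targets was called. Over all genes, 0.682% were called higher and 2.72% in either direction in WT-Topot against WT-Veh. With the replicate block, 3 of 9 were called higher, the third being Gstm5, where 3.24% of all genes were. None of the 9 was called lower, where 2.04% of all genes were without the block and 5% with it, and 8.25% were called in either direction with the block.

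Gsta4 encodes an alpha class transferase known for detoxifying 4-hydroxynonenal, a product of lipid peroxidation. It had 12.6, 13.1 and 5.76 CPM in WT-Veh replicates 1 to 3 and 54.3, 30.3 and 35.5 CPM in the WT-Topot replicates. All WT-Topot libraries lay above all WT-Veh libraries, as they also did for Gstm6 and Gstm7 and for 12.9% of genes averaging 1 CPM or more. The level rose 3.72-fold (log2 fold change 1.90, SE 0.319, adjusted p = 7.30e-04), and over all alternatives tried the adjusted p stayed at or below 0.00634.

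Gstm6, a mu class transferase, was a low transcript. WT-Veh libraries held 4.10, 1.75 and 2.30 CPM, from 14, 4 and 4 counts, and WT-Topot libraries 6.37, 23.5 and 10.3 CPM. The groups did not overlap, but WT-Topot replicate 2 stood far above the others. The fitted change was 4.70-fold (log2 2.23, SE 0.502, adjusted p = 0.00983), and without WT-Topot replicate 2 it was 1.53 on the log2 scale with an adjusted p of 0.153. Without WT-Veh replicate 2 the adjusted p was 0.0301, with DESeq2's size factors 0.0104 and after a filter on low counts 0.031, so this call sat at the threshold.

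Gstm7, the gene that set the choice, had 4.39, 3.07 and 1.73 CPM in WT-Veh and 15.8, 48.9 and 14.1 CPM in WT-Topot, from 15, 7, 3, 47, 171 and 33 counts. Replicate 2 was again the highest WT-Topot library. The fitted log2 fold change was 3.02 (SE 0.482), and it ranged from 2.19 to 3.69 when 1 library or replicate number was left out. Within replicate numbers, the log2 difference was 1.73, 3.79 and 2.72.

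Gstm5, the mu class transferase known from brain and testis, had 49.4, 23.7 and 46.7 CPM in WT-Veh and 83.1, 46.7 and 73.7 CPM in WT-Topot. The groups overlapped, with replicate 2 the lowest in both, while each replicate number showed a higher value with topotecan. The log2 fold change was 0.77 (SE 0.270) with an adjusted p of 0.144, and 0.79 with an adjusted p of 2.47e-04 with the replicate block. Without replicate number 1 the blocked adjusted p was 0.0101. The start of Gstm5 overlaps 4933431E20Rik, a noncoding gene on the opposite strand, which had a log2 fold change of 0.85 (SE 0.204, adjusted p = 0.0162, and 2.16e-08 with the block), and reads of the overlap may be counted for either.

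Gstm1, the most abundant transferase here, was at 210.4, 89.8 and 70.3 CPM in WT-Veh and 169.2, 190.3 and 80.5 CPM in WT-Topot. The groups overlapped throughout, and the log2 fold change of 0.25 (SE 0.322, adjusted p = 0.974) was within the spread between libraries. Its sign turned in 2 of the fits with a library or number left out, to −0.02 without WT-Veh replicate 3 and to −0.11 with the block and without number 2, and with the block and without number 1 it was called higher (0.68, adjusted p = 0.00763).

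None of the 5 NRF2 targets passed the test in WT-Topot against WT-Veh, with or without the block. Srxn1, whose product sulfiredoxin repairs overoxidised peroxiredoxins, had 236.1, 273.5 and 144.0 CPM in WT-Veh and 210.8, 179.5 and 146.5 CPM in WT-Topot, with a log2 fold change of −0.28 (SE 0.218, adjusted p = 0.764). Nqo1, the quinone reductase often used as a readout of NRF2, had 10.2, 3.94 and 5.76 against 12.4, 6.01 and 5.99 CPM, with a log2 fold change of 0.26 (SE 0.437, adjusted p = 1.0). In both genes the ranges of the groups overlapped.

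Gclc and Gclm, the catalytic and modifier subunits of the enzyme that starts glutathione synthesis, had log2 fold changes of 0.14 (SE 0.233) and −0.06 (SE 0.227), each with an adjusted p of 1.0. Gclc ranged from 37.4 to 69.3 CPM in WT-Veh and from 52.1 to 63.0 CPM in WT-Topot. Gclm ranged from 38.6 to 65.0 and from 40.3 to 55.8 CPM. For both subunits the WT-Topot range fell inside the WT-Veh range.

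Hmox1, which encodes the heme-degrading enzyme heme oxygenase 1, had 188.7, 80.2 and 53.6 CPM in WT-Veh and 88.5, 71.3 and 58.7 CPM in WT-Topot. Its log2 fold change was −0.57 (SE 0.312, adjusted p = 0.506), and 0.0608 was the adjusted p with the block. Replicate 1 was the highest and replicate 3 the lowest library for Hmox1 in all 4 groups, and the same order held for the summed astrocyte markers. Without WT-Veh replicate 3 the log2 fold change was −0.88 with an adjusted p of 0.0091, so Hmox1 was called lower in that fit, as it was with the block without number 2 (adjusted p = 0.00555) and without number 3 (0.00828).

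**Figure D2:**
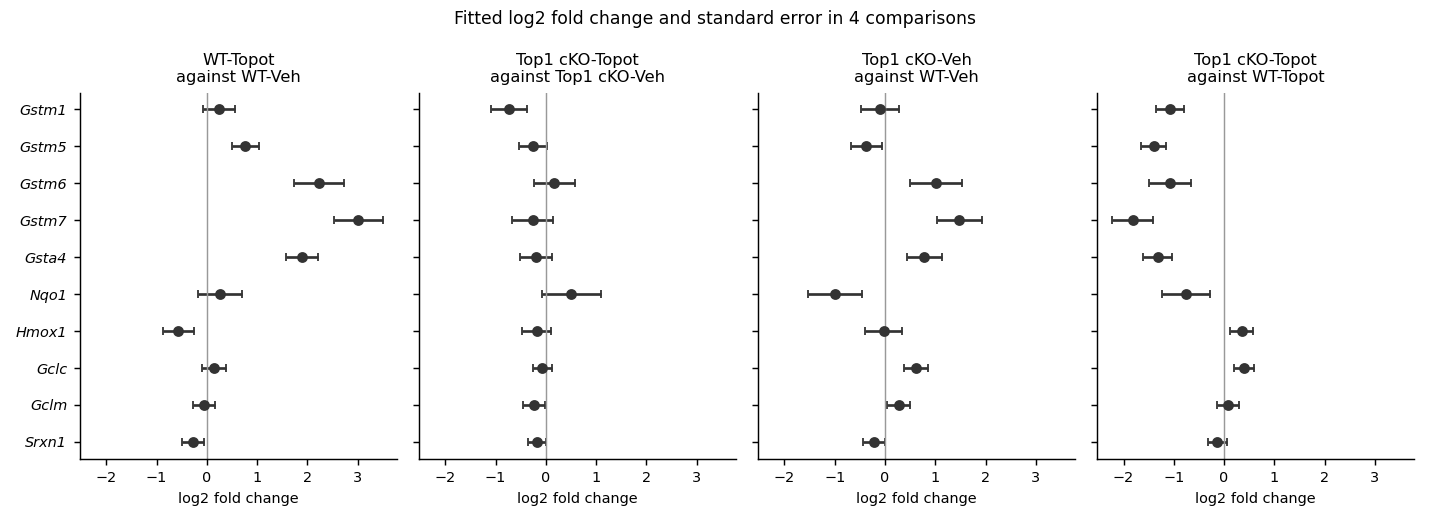
Fitted log2 fold changes (x axes) with standard errors (bars) of the 10 genes (y axis) in 4 comparisons, a zero line marking no difference. With topotecan in WT cells Gstm7 (3.02), Gstm6 (2.23) and Gsta4 (1.90) lie farthest from zero, and in Top1 cKO cells the 10 values lie between −0.73 (Gstm1) and 0.51 (Nqo1).

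Promoters of 2 Gstm genes and of 2 NRF2 targets that were not called are shown because the core letters of an antioxidant response element occur in each of them. RefSeq promoter windows on GRCm38.p6, from 250 bases before to 50 after a start site, were matched for 7 of the 10 genes, with 11 windows in all. The core letters TGACNNNGC were searched on both strands and found in windows of 4 of the 7 genes, Gstm5, Gstm7, Gclm and Srxn1, while 14.0% of 27025 genes and 12.4% of 32851 windows of the table held them. None of these matches overlapped the AP-1 letters TGACTCA, which were present in Gstm5 and Srxn1 and in 5.95% of all genes. With the looser letters TGANNNNGC the number of genes was also 4, against 45.0% of all genes. A looser match in Srxn1, TGAGTCAGC, does overlap the AP-1 letters, which it holds on the opposite strand. The windows are written 5′ to 3′ on the gene's strand, with the match in capitals, for Gstm7 (its second window, chr3:107931565-107931864, minus strand, match starting at −129), Gstm5 (chr3:107895604-107895903, plus strand, −42), Gclm (chr3:122245307-122245606, plus strand, −134) and Srxn1 (chr2:152105274-152105573, plus strand, 28), positions counted from the start site.
Gstm7: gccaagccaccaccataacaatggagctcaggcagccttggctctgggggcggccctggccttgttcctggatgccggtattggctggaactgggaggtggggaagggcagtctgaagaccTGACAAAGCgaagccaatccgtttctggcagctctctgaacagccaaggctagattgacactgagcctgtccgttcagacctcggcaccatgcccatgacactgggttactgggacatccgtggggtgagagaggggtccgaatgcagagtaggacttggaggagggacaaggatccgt
Gstm5: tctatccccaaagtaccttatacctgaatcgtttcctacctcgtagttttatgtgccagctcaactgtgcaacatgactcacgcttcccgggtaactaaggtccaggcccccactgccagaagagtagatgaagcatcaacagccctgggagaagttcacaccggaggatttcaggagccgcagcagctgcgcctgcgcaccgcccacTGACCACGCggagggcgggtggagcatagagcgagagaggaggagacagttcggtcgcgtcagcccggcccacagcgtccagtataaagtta
Gclm: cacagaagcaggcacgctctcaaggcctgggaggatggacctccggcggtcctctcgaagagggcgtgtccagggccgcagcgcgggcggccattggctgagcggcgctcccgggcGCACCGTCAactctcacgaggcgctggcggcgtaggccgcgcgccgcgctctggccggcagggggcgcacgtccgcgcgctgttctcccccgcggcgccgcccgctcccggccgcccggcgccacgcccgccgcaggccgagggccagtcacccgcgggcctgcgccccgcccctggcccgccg
Srxn1: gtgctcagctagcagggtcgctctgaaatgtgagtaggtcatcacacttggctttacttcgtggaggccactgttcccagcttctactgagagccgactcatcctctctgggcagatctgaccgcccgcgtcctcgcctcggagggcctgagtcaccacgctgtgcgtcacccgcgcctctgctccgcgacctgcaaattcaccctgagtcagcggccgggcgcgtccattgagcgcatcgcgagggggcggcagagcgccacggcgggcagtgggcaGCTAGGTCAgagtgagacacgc

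Gstm1, Gstm6 and Nqo1 held no match in their windows, so the letters were present in Gstm7 and Gstm5 and in 2 genes without a call, and absent from the windows of Gstm6. Gsta4, which was called, and Hmox1 and Gclc had no window, and sequence outside the windows was not searched. A match of these letters is a description of the window and was not tested for binding.

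The mu class transcripts are close copies, and the libraries were read in 50-base pairs. Of the 50-base windows of each reference transcript (GENCODE vM1 on NCBIM37, the assembly of mm9), none of Gstm7, Gstm5 or Gstm4 also occurred in another Gstm transcript. Gstm6 shared 6.88% of its windows, all with Gstm3, Gstm1 shared 10.9% with Gstm2 and Gstm3, and Gstm3 shared 17.3% with Gstm1 and Gstm6. Gstm2 shared 1.08%, all with Gstm1. The coding sequence of Gstm7 was 82.5% identical to that of Gstm6 and 70.4% to that of Gstm5. Coding bases 199 to 258, within exon 4, are shown for 5 genes because, of all 60-base windows that start at a codon and lie in 1 exon, this one had the fewest differences from Gstm7 over the 6 Gstm genes other than Gstm5. It is written with every base that differs from Gstm7 in capitals. On the minus strand of NCBIM37 they lie at chr3:107733392-107733451 in Gstm7, chr3:107745252-107745311 in Gstm6, chr3:107770685-107770744 in Gstm3, chr3:107846439-107846498 in Gstm4 and chr3:107819438-107819497 in Gstm1.
Gstm7: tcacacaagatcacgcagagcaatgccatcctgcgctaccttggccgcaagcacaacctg
Gstm6: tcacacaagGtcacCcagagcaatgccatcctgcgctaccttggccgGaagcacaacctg
Gstm3: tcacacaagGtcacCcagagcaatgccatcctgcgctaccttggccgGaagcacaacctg
Gstm4: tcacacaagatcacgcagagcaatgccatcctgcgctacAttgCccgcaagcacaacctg
Gstm1: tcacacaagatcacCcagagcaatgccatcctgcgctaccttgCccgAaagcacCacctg

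Gstm6 and Gstm3 read the same over these bases and their annotated spans overlap on one strand, so the split of such reads between these 2 symbols is uncertain. Gstm7 differed from each of the others in 2 to 4 of the 60 bases. Gstm2 and Gstm3 had nearly the same counts in each library, such as 46 and 45 in WT-Topot replicate 2. No 50-base window of the Gstm2 reference transcript also occurred in Gstm3, and whether the same reads were counted under both symbols is not known. The sum over the 7 Gstm genes does not depend on a split of reads, but does depend on any counted under several symbols or dropped. It was 293.2, 139.8 and 137.1 CPM in WT-Veh and 301.9, 409.6 and 212.0 CPM in WT-Topot, where WT-Veh replicate 1 owed most of its sum to Gstm1. These sums include Gstm7, which was chosen by its values. Without Gstm7 and the more abundant Gstm1 and Gstm5, the other 4 summed to 29.0, 23.2 and 18.4 CPM in WT-Veh and to 33.9, 123.6 and 43.7 CPM in WT-Topot, where replicate 2 stood far above the others and replicate 1 was close to its vehicle library.

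The 7 Gstm genes lie within 149.074 kb at chr3:107698739-107847812 of NCBIM37. In WT-Topot against WT-Veh all 7 had positive log2 fold changes. For Gstm7 the sign was given by its choice, and the value of Gstm1 (0.25, SE 0.322) was smaller than its SE. The 3 that are not among the 10 genes were Gstm2 (1.88, SE 0.705), Gstm3 (1.999, SE 0.762) and Gstm4 (1.21, SE 0.367). Of these, Gstm4 was called with the block (log2 fold change 1.04, adjusted p = 4.77e-04) and not without it (adjusted p = 0.0725). Gstm4 had 21.9, 14.5 and 16.1 CPM in WT-Veh and 24.1, 74.1 and 23.1 CPM in WT-Topot, so replicate 2 again stood apart. As the counts of Gstm2 and Gstm3 were nearly the same in each library, their values may not be separate observations. Of the 11 other genes within 250 kb that had a mean of at least 1 CPM, none was called without the block, and 10 had positive values with a median of 0.24, beside 0.03 over all such genes of the table. Eps8l3 and 4933431E20Rik, the neighbours of Gstm5, were called higher with the block and Ahcyl1, which encodes an IP3 receptor binding protein, was called lower. Eps8l3 (chr3:107680148-107695817) and 4933431E20Rik (chr3:107691768-107699131) overlap on opposite strands. Reads may be shared between them, so their values here and below may not be separate observations. In Top1 cKO-Topot against WT-Topot, Eps8l3 (−0.92, SE 0.187, adjusted p = 0.00331) and 4933431E20Rik were called lower, and in Top1 cKO-Topot against WT-Veh, Ampd2, an AMP deaminase, was called higher (1.119, SE 0.218, adjusted p = 0.00392). With the block the interactions of Eps8l3 (−0.94, adjusted p = 0.00439) and 4933431E20Rik (−0.89, adjusted p = 5.38e-04) were called, and topotecan changed Ampd2 (0.87, adjusted p = 8.78e-08) and Ahcyl1 (−0.40, adjusted p = 5.76e-04) in Top1 cKO cells.

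**Figure D3:**
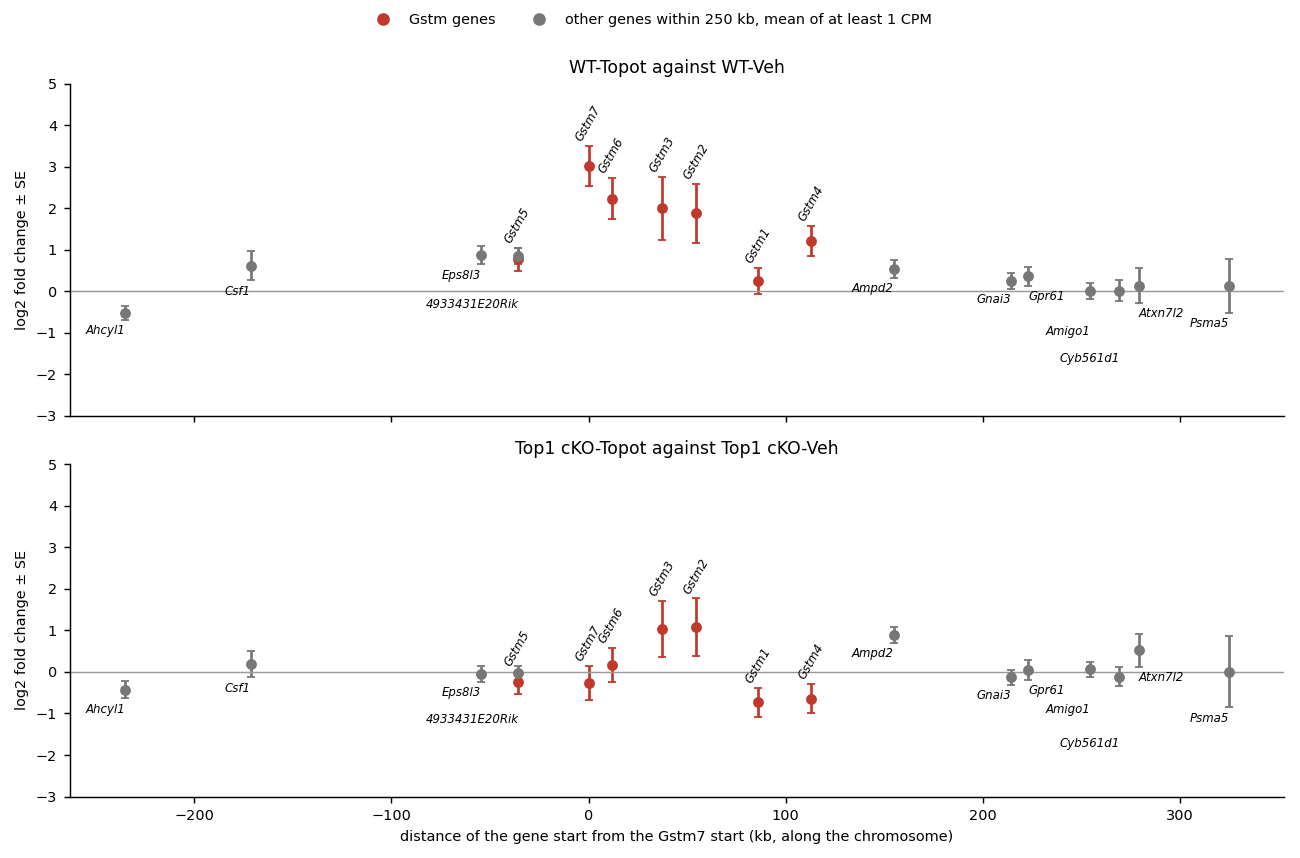
Log2 fold change with topotecan (y axis, bars for the standard error) of the 7 Gstm genes and of the other genes within 250 kb, against the distance of each gene start from that of Gstm7 (x axis, kb), in WT cells above and Top1 cKO cells below. In WT cells all 7 Gstm genes lie above zero, from 0.25 (Gstm1) to 3.02 (Gstm7, which was chosen for its rise). In Top1 cKO cells 4 of them lie below zero.

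In Top1 cKO cells topotecan changed none of the 9 tested genes at the threshold, where 0.00837% of all genes were called. With the block 1 of 9 was called, Gstm1, where 1.74% of all genes were called lower and 2.59% in either direction. Over all genes 1031 had an unadjusted p under 0.05 without the block.

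Gstm1 had 185.0, 104.4 and 59.1 CPM in Top1 cKO-Veh and 85.2, 89.3 and 33.2 CPM in Top1 cKO-Topot. The ranges overlapped, while each replicate number was lower with the drug. The log2 fold change was −0.73 (SE 0.358, adjusted p = 1.0), and −0.69 with an adjusted p of 3.35e-05 with the block. Without replicate number 1, the blocked value was −0.48 with an adjusted p of 0.345.

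Gsta4 had 22.7, 13.7 and 19.5 CPM in Top1 cKO-Veh and 22.7, 13.6 and 11.8 CPM in Top1 cKO-Topot. In replicate numbers 1 and 2 the difference was close to 0, and the log2 fold change was −0.19 (SE 0.320, adjusted p = 1.0). Gstm7 went from 6.65, 9.16 and 11.5 CPM to 10.8, 7.64 and 3.93 CPM, with a log2 fold change of −0.26 (SE 0.407), higher in 1 replicate number and lower in 2. Gstm6 (0.17, SE 0.415), Gstm5 (−0.25, SE 0.281) and the 5 NRF2 targets (−0.24 to 0.51) likewise did not pass the test.

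The difference between these responses was tested as the interaction of topotecan and deletion on all 12 libraries. Without the block none of the 9 was called, where 0.435% of all genes were, and 1966 genes had an unadjusted p under 0.05. Gsta4 came nearest, with an interaction of −2.09 on the log2 scale (SE 0.472, adjusted p = 0.0277), and DESeq2's Wald test gave it an adjusted p of 0.00443. With the block 3 of 9 were called, all with a lower response in Top1 cKO cells, where 1.53% of all genes were called in that direction and 3.97% in either. These were Gsta4 (−2.10, adjusted p = 1.45e-05), Gstm1 (−1.003, adjusted p = 0.00325) and Gstm5 (−1.04, adjusted p = 0.00326).

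The Gsta4 interaction was called in the blocked fit whichever replicate number was left out, with adjusted p values of 0.0021, 3.74e-08 and 0.00434 without numbers 1, 2 and 3. The Gstm1 interaction was lost without number 3 (adjusted p = 0.0336), and the Gstm5 interaction whichever number was left out (0.0216 to 0.0488). For Gstm6 the interaction was −2.07 (SE 0.686, adjusted p = 0.22, and 0.0349 with the block). For Gstm7 the value was −3.29 (SE 0.695), given without a test. The interactions of the 5 NRF2 targets lay between −0.22 and 0.39 and none was called.

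Set directly against each other, the topotecan-treated groups differed in 2 of the 9 genes, Gstm5 and Gsta4, both lower in Top1 cKO-Topot than in WT-Topot, where 1.03% of all genes were called lower and 2.49% in either direction. With the block the count was 3, Gstm1 being added, and 4.08% of all genes were called lower and 8.69% in either direction. The libraries of the 2 groups did not overlap for Gstm5, Gsta4 and Gstm7, each lower in Top1 cKO-Topot, as were 14.2% of genes averaging 1 CPM or more.

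Gstm5 had 31.5, 18.9 and 27.1 CPM in Top1 cKO-Topot, below the 46.7 to 83.1 CPM of WT-Topot, a log2 fold change of −1.40 (SE 0.249, adjusted p = 9.12e-04). Within replicate numbers its log2 difference was −1.39, −1.28 and −1.43. The call was lost without Top1 cKO-Topot replicate 2 (adjusted p = 0.012). The overlapping 4933431E20Rik had a log2 fold change of −0.92 (SE 0.162, adjusted p = 8.55e-04).

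Gsta4 had a log2 fold change of −1.32 (SE 0.288, adjusted p = 0.00583), with differences of −1.24, −1.13 and −1.55 within replicate numbers. Its adjusted p was 0.0292 without WT-Topot replicate 1, 0.0407 without Top1 cKO-Topot replicate 2 and 0.0209 after the filter on low counts. Gstm1 was at −1.08 (SE 0.284, adjusted p = 0.024), and at −1.10 with an adjusted p of 5.58e-09 with the block, and library totals without scaling also called it (adjusted p = 0.00941). Without replicate number 3 none of the 3 blocked calls held, with adjusted p values of 0.032 for Gstm1, 0.0353 for Gstm5 and 0.0493 for Gsta4. Gstm7 was at −1.82 (SE 0.415) and Gstm6 at −1.08 (SE 0.414, adjusted p = 0.169).

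The NRF2 targets did not differ at the threshold between the treated groups. Hmox1 was 0.35 (SE 0.226, adjusted p = 0.593) and Gclc 0.39 (SE 0.200, adjusted p = 0.393) higher on the log2 scale in Top1 cKO-Topot, whereas Nqo1 was at −0.76 (SE 0.474, adjusted p = 0.572). Gclm and Srxn1 were at 0.08 (SE 0.213) and −0.13 (SE 0.186), each with an adjusted p of 1.0.

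Deletion of Top1 without drug changed none of the 9 genes at the threshold, where 0.172% of all genes were called and 2084 had an unadjusted p under 0.05. With the block 1 was called, Gclc, where 2.60% of all genes were called higher and 5.56% in either direction. Gclc had 46.5, 69.3 and 37.4 CPM in WT-Veh and 85.3, 70.3 and 80.2 CPM in Top1 cKO-Veh. The 2 groups did not overlap, though the values of replicate number 2 were nearly level. The log2 fold change was 0.62 (SE 0.237, adjusted p = 0.387), and 0.63 with an adjusted p of 0.00225 with the block, which became 0.17 without replicate number 1 and 0.223 without number 3.

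Gclm, the other subunit, had a log2 fold change of 0.27 (SE 0.236, adjusted p = 0.981) after deletion. Gsta4 had 0.78 (SE 0.351, adjusted p = 0.529) and Gstm6 1.01 (SE 0.516, adjusted p = 0.649), and Gstm7 had 1.48 (SE 0.453), again without a test. For Gsta4, Gstm7 and Gclc the Top1 cKO-Veh libraries all exceeded the WT-Veh libraries, and 9.58% of genes averaging 1 CPM or more were higher in this way. Gstm5 had −0.37 (SE 0.303, adjusted p = 0.945), Gstm1 −0.09 (SE 0.381), Hmox1 −0.02 (SE 0.368), Srxn1 −0.23 (SE 0.218) and Nqo1 −0.99 (SE 0.534, adjusted p = 0.69).

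With deletion and drug together, Top1 cKO-Topot against WT-Veh, none of the 9 was called, where 1.68% of all genes were, and 3217 had an unadjusted p under 0.05. With the block Gstm1 was called lower (log2 fold change −0.76, adjusted p = 0.00214, and −0.82 with 0.262 without the block), where 4.02% of all genes were called lower and 7.37% in either direction. Without replicate number 1 the blocked adjusted p of Gstm1 was 0.698. Gsta4 (0.60, SE 0.370) and Gstm6 (1.18, SE 0.498) did not pass, and Gstm7 was at 1.23 (SE 0.503).

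The regulators of NRF2 gave no call in any of the 6 fits without the block. Nfe2l2 had 54.4, 32.9 and 19.6 CPM in WT-Veh and 35.9, 37.8 and 27.4 CPM in WT-Topot, and its log2 fold change was −0.10 (SE 0.289, adjusted p = 1.0). Keap1 had 88.9, 85.0 and 77.8 against 82.4, 92.2 and 86.1 CPM, a log2 fold change of 0.05 (SE 0.184, adjusted p = 1.0). In Top1 cKO cells the topotecan values were −0.05 (SE 0.325) for Nfe2l2 and −0.09 (SE 0.183) for Keap1. The median of the 10 regulators was −0.03 with topotecan in WT cells, beside 0.03 over all genes averaging 1 CPM or more.

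With the block, Sqstm1, which encodes the autophagy receptor p62 that binds KEAP1, was called higher with topotecan in Top1 cKO cells (0.28, adjusted p = 0.00764). It was also called in Top1 cKO-Topot against WT-Topot (0.39, adjusted p = 5.86e-04) and against WT-Veh (0.59, adjusted p = 5.94e-05). Cul3 was called higher in Top1 cKO-Topot against WT-Topot with the block (0.52, adjusted p = 0.00447).

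Of 21 other NRF2 targets, 20 of them with a mean of at least 1 CPM, 1 rose and 1 fell with topotecan in WT cells, with a median of −0.14 over the 20. Over all genes, 0.682% were called higher and 2.04% lower. Pgd, an enzyme of the pentose phosphate pathway that supplies NADPH, had 16.4, 23.7 and 19.6 CPM in WT-Veh and 59.0, 42.6 and 50.1 CPM in WT-Topot. These ranges did not overlap, and the log2 fold change was 1.36 (SE 0.246, adjusted p = 0.00149). Slc7a11, the subunit of the cystine importer that feeds glutathione synthesis, had 72.0, 52.6 and 44.4 CPM in WT-Veh and 29.1, 20.3 and 24.4 CPM in WT-Topot. All treated libraries lay below all controls, and the log2 fold change was −1.20 (SE 0.242, adjusted p = 0.00421). With the block Abcc4, an exporter of organic anions, was called lower too (−1.53, adjusted p = 0.00661).

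In Top1 cKO cells none of the 21 was called with topotecan without the block, and Tkt (−0.60, adjusted p = 0.00139) and Fth1 (−0.43, adjusted p = 3.49e-07) were called lower with it. Pgd was at 0.15 (SE 0.229) and Slc7a11 at −0.70 (SE 0.317) there. The interaction of Pgd was −1.20 with an adjusted p of 0.00243 with the block, and −1.21 with 0.0697 without it. Ftl1, the ferritin light chain, was called lower in Top1 cKO-Topot against WT-Topot (−0.82, SE 0.182, adjusted p = 0.0069) and against WT-Veh (−0.93, SE 0.199, adjusted p = 0.00841), and with the block also in Top1 cKO-Veh against WT-Veh (−0.49, adjusted p = 0.00654).

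Among 20 other glutathione transferases, 10 had a mean of at least 1 CPM in the WT comparison and 4 had no count in any library. None was called with topotecan in WT cells without the block, and 9 of the 10 had positive values with a median of 0.38. Gstm2 and Gstm3, with nearly the same counts in each library, were both among these. In Top1 cKO-Topot against WT-Topot 2 of the 20 were called lower, where 1.03% of all genes were. These were Gstm4 (−2.41, SE 0.376, adjusted p = 2.26e-04) and Gsto1 (−1.01, SE 0.236, adjusted p = 0.00999), an omega class enzyme. Gstm4 had 7.17, 8.30 and 7.43 CPM in Top1 cKO-Topot, below all WT-Topot libraries. With the block, Gstm4 (−1.16, adjusted p = 0.00459) and Gsto1 (−0.87, adjusted p = 0.0038) were also called lower in Top1 cKO-Topot against WT-Veh. The interaction of Gstm4 was called with the block (−1.68, adjusted p = 0.00598) and not without it (−1.86, adjusted p = 0.137).

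Of 18 other genes of glutathione metabolism, 17 had a mean of at least 1 CPM in the WT comparison. With topotecan 10 of these had positive and 7 negative values, with a median of 0.43, beside 0.03 over all such genes. In WT cells 1 of the 18 was called without the block, and it was lower, where 2.04% of all genes were. This was Chac1, which encodes an enzyme that breaks down glutathione and is known as a target of ATF4. It had 59.1, 61.8 and 65.1 CPM in WT-Veh, 7.37, 17.5 and 12.4 CPM in WT-Topot, 9.78, 9.16 and 13.0 CPM in Top1 cKO-Veh and 13.1, 7.31 and 16.6 CPM in Top1 cKO-Topot. The WT-Veh libraries thus stood above all 9 others. Chac1 fell with topotecan in WT cells (−2.30, SE 0.274, adjusted p = 1.76e-05) and with deletion alone (−2.56, SE 0.251, adjusted p = 2.18e-04), and it was lower in Top1 cKO-Topot than in WT-Veh (−2.32, SE 0.284, adjusted p = 3.14e-05). Its interaction was 2.52 (SE 0.450, adjusted p = 0.00589). With the block, Gpx1, a glutathione peroxidase, was called higher with topotecan in WT cells (0.78, adjusted p = 3.19e-06), and lower in Top1 cKO-Topot than in WT-Topot (−0.66, adjusted p = 3.80e-05), as was Chac2 (−1.06, adjusted p = 8.37e-04).

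**Figure D4:**
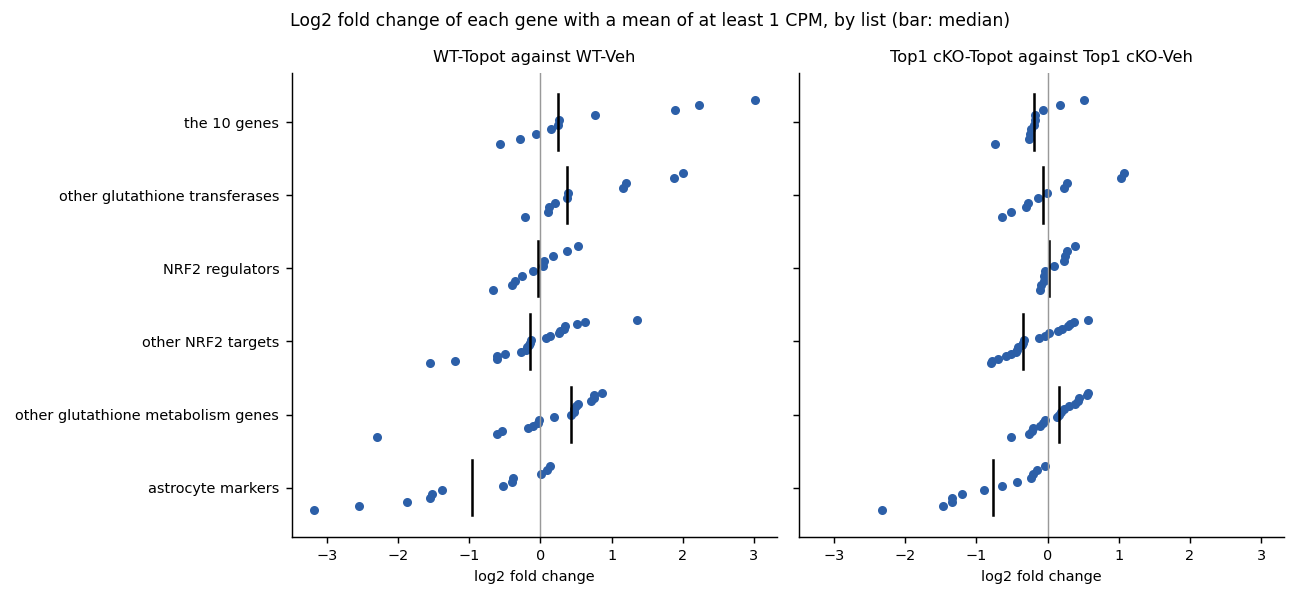
Log2 fold change with topotecan (x axes) of each gene with a mean of at least 1 CPM (points) by gene list (y axis), in WT cells on the left and Top1 cKO cells on the right, with a bar at each median. In WT cells the NRF2 regulators and other NRF2 targets have medians of −0.03 and −0.14, near zero, and the astrocyte markers one of −0.96. The other glutathione transferases and other glutathione metabolism genes have medians of 0.38 and 0.43 there.

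Over the 12 libraries, the genes whose log2(CPM + 1) was most like that of Gstm7 among 13719 genes were Gstm6 (Pearson r = 0.93), Pdcd4 (0.92), Wdr6 (0.91), Nfs1 (0.90) and Ppwd1 (0.89). Of the other members of the set, Gsta4 was at rank 74 (r = 0.79), Gstm1 at rank 2575 (r = 0.39) and Gstm5 at rank 3268 (r = 0.32), and the NRF2 targets had values of −0.05 to 0.22. These are descriptions, given without a test, over 12 libraries in which those of one replicate number deviated together and total counts differed. Wdr6, the most abundant of the 5, had 349.6, 331.8 and 303.5 CPM in WT-Veh, 1028, 1099 and 739.2 CPM in WT-Topot, 507.2, 631.3 and 548.1 CPM in Top1 cKO-Veh and 438.9, 584.5 and 331.4 CPM in Top1 cKO-Topot. Nfs1, a cysteine desulfurase that supplies sulfur to iron-sulfur clusters, had 8.64 to 19.3 CPM in WT-Veh and 32.6 to 34.1 CPM in WT-Topot. It had 20.3 to 23.8 CPM in Top1 cKO-Veh and 15.3 to 27.1 CPM in Top1 cKO-Topot. Both Wdr6 and Nfs1 were highest in the WT-Topot libraries. The means of the Top1 cKO groups lay in between, while the Top1 cKO-Topot libraries overlapped those of WT-Veh. Both genes were picked for likeness to Gstm7, itself chosen for its rise with topotecan, so such a pattern was largely set by the choice.

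The libraries also differed in astrocyte markers. In CPM their sum was 2763 to 5744 in WT-Veh libraries and 1486 to 2494 in WT-Topot libraries, 3011 to 7196 in Top1 cKO-Veh and 1959 to 3860 in Top1 cKO-Topot. In WT cells 3 of the 12 markers, Gfap, Slc1a3 and Slc1a2, were called lower with topotecan, 6 with the block, with a median log2 fold change of −0.96, and in Top1 cKO cells none without and 6 with the block, with a median of −0.77. Over all genes, 2.04% were called lower without and 5% with the block in WT cells, and 1.74% with it in Top1 cKO cells. Aldoc, S100b and Sox9 had values of 0.09, 0.00122 and 0.13 (log2 fold change, each with an adjusted p of 1.0) in WT cells. Each of the 12 had a mean of at least 1 CPM in both comparisons. Gstm7, Gstm6, Gsta4, Gstm1, Gstm5 and Nqo1 had their highest group means in WT-Topot, and Gstm7 was chosen for its rise there. This group had the lowest median of the marker sums, 1863 CPM. The part of astrocytes in the values of the 10 genes was not tested. Meningeal fibroblast markers were highest in replicate 1 of each group, from 79.3 to 254.0 CPM, against 18.3 to 58.6 CPM in the other libraries, and their part in the high Hmox1 and Nqo1 of replicate 1 was not tested.

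**Figure D5:**
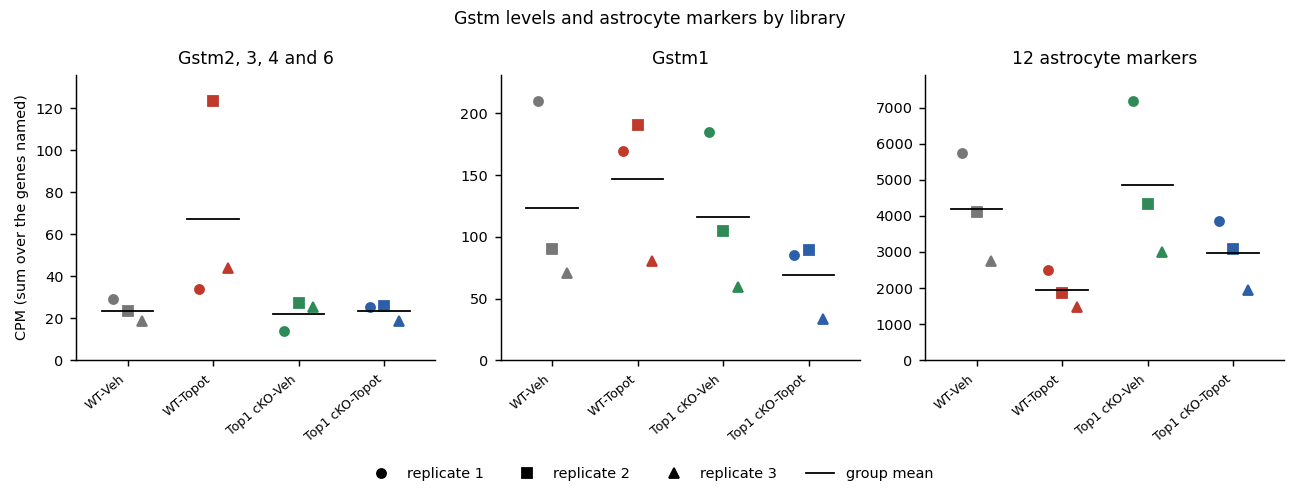
Summed CPM of Gstm2, 3, 4 and 6 (left), of Gstm1 (middle) and of the 12 astrocyte markers (right) in each library (y axes from 0), by group on the x axis, with symbols for replicate numbers and a line at the group mean. WT-Topot replicate 2 stands apart for the 4 Gstm genes at 123.6 CPM, while the astrocyte sums of the WT-Topot libraries are 1486 to 2494 CPM, below all WT-Veh libraries.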

How the data were processed

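RNA was measured in 12 cultures, 3 per group, with groups and replicate numbers from the labels. The authors isolated polyA RNA, made TruSeq libraries, read 50-base pairs, passed them through TagDust, mapped what was left to mm9 by TopHat and discarded rRNA reads. The values they deposited are raw counts, one per gene symbol over its RefSeq exons, with no normalization. The program that counted, its use of strand and the RefSeq release are not given in the sources used here, so reads of opposite or near-identical genes may be shared between symbols.

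From these counts, each pair of groups was fitted on its 6 libraries, and the interaction on all 12, with edgeR 4.0.16 (TMM, glmQLFit and glmQLFTest, no gene filter), with Benjamini-Hochberg adjustment over all 23893 genes and an FDR of 0.01. The study names edgeR but not its test. Depth was 1730164 to 4583777 counts per library, and 5182 genes had no count. The tests were first tested on simulated data. Replicate numbers were taken to pair the libraries, since deviations from group means over 13720 genes correlated at 0.261 to 0.485 within the 18 pairs of libraries of one number and at −0.384 to −0.0494 within the 36 pairs of different numbers. Deviations from a group mean cancel within the group, so positive values for the same number make those for different numbers negative on average. What a number stands for is stated in neither the labels nor the methods. The study counts the 3 libraries of a group as 3 cultures, without saying whether these came from separate litters. No 2 libraries of a group were repeats (dispersion index 6.05 to 10.1 over 12 pairs, where sampling noise gives 1).

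The 10 genes and the gene lists (other glutathione transferases, NRF2 regulators, other NRF2 targets, other glutathione metabolism genes, genes within 250 kb of the Gstm cluster, and cell type markers) were chosen with earlier results of these data known. Named from each list were, in each comparison, all genes called in the unblocked fit or, if none, up to 3 called with the replicate block, with a mean of at least 1 CPM, besides Nfe2l2, Keap1, Top1 and the 5 genes most like Gstm7. Outside this rule, chosen after their values were seen, were cell type markers, Gstm2, Gstm3, and Abcc4 and Gpx1 in WT-Topot against WT-Veh. Alternatives were the replicate block, DESeq2 size factors, upper quartile scaling, library totals, filterByExpr, DESeq2 1.42.0 (Wald test), edgeR's exact test and leaving out each library. Leaving out each replicate number in the blocked fit and summing the 7 Gstm genes, or 4 of them, were added after seeing the data. Coordinates, exon lengths and transcripts are from GENCODE vM1 on NCBIM37, and promoters from RefSeq on GRCm38.p6. Exon lengths are the annotation's, not the authors' RefSeq models, so values per kilobase are approximate.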

Additional observations from a re-analysis of the deposited data

Results flagged for a closer look

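Of the 9 tested genes, 3 differed in their response to topotecan between WT and Top1 cKO cells by the test of the difference itself, the interaction term in edgeR's fit blocked on replicate number, where 1.53% of all genes were called lower and 3.97% in either direction. The interaction was −2.10 on the log2 scale for Gsta4 (−2.099, adjusted p = 1.45e-05), where topotecan gave 1.90 in WT cells and −0.19 in Top1 cKO cells. It was −1.04 for Gstm5 (−1.043, adjusted p = 0.00326), where topotecan gave 0.77 and −0.25. It was −1.003 for Gstm1 (adjusted p = 0.00325), where topotecan gave 0.25 and −0.73. None of the 3 was called without the block, with adjusted p values of 0.0277, 0.444 and 0.80. The Gstm5 call was lost whichever replicate number was left out, the Gstm1 call without number 3, and the Gsta4 call in none of these fits.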

How the results depend on the processing

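The replicate number as a block raised the count of the 9 tested genes from 2 to 3 for WT-Topot against WT-Veh and for Top1 cKO-Topot against WT-Topot. It raised the count from 0 to 1 for deletion alone (Top1 cKO-Veh against WT-Veh), for topotecan in Top1 cKO cells (Top1 cKO-Topot against Top1 cKO-Veh), as well as for deletion with drug (Top1 cKO-Topot against WT-Veh), and from 0 to 3 for the interaction. The blocked calls are given beside each result above, and the block changed no other call of the 9 genes. The count for WT-Topot against WT-Veh was 1 with DESeq2's size factors and 1 after filterByExpr, both by the loss of Gstm6, and that for Top1 cKO-Topot against WT-Topot was 1 after filterByExpr. DESeq2's Wald test gave 1 for the interaction.

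Leaving out 1 library, or 1 replicate number in the blocked fit (added after seeing the data), gave counts of 1 to 4 for WT-Topot against WT-Veh, 0 to 1 for deletion alone, 0 to 1 for topotecan in Top1 cKO cells, 0 to 4 for Top1 cKO-Topot against WT-Topot, 0 to 2 for Top1 cKO-Topot against WT-Veh and 0 to 3 for the interaction.

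Over all genes, 4.82% were called in at least 1 of the 6 fits without the block and 16.3% with it. Such genes numbered, without and with the block, 0 and 2 among the NRF2 regulators (1 by DESeq2's Wald test), 3 and 7 among the other NRF2 targets, 1 and 3 among the glutathione metabolism genes and 3 and 5 around the Gstm cluster. Both counts around the cluster include the overlapping Eps8l3 and 4933431E20Rik. Among the other glutathione transferases the 2 genes became 1 with DESeq2's size factors and 1 after filterByExpr.

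Some values that were not called over all libraries changed sign when 1 library or number was left out. In WT-Topot against WT-Veh the log2 fold change ranged from −0.11 to 0.87 for Gstm1, −0.18 to 0.76 for Nqo1, −0.88 to 0.11 for Hmox1 (called in 3 of these fits, as Gstm1 was in 1), −0.0233 to 0.48 for Gclc and −0.21 to 0.15 for Gclm, which was 0.0178 with library totals. In Top1 cKO-Veh against WT-Veh it ranged from −0.60 to 0.54 for Gstm1, −0.41 to 0.67 for Hmox1, which was 0.0701 with the block, and −0.45 to 0.0124 for Srxn1. In Top1 cKO-Topot against Top1 cKO-Veh the ranges were −0.17 to 0.53 for Gstm6, −0.54 to 0.00518 for Gsta4, −0.25 to 0.91 for Nqo1, −0.46 to 0.20 for Hmox1 and −0.27 to 0.0788 for Gclc. In Top1 cKO-Topot against WT-Topot they were −0.0375 to 0.21 for Gclm and −0.25 to 0.0268 for Srxn1, and in Top1 cKO-Topot against WT-Veh −1.22 to 0.0243 for Nqo1, −0.51 to 0.49 for Hmox1 and −0.12 to 0.26 for Gclm. For the interaction they were −0.49 to 0.69 for Nqo1, −0.31 to 0.76 for Hmox1, −0.75 to 0.0703 for Gclc and −0.19 to 0.32 for Srxn1. The cause of these changes was not tested.

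Depth limits Gstm6, Gstm7 and Nqo1, for which single libraries held few reads. Of the 4 calls made without the block, that of Gsta4 in WT-Topot against WT-Veh was the one that held under every alternative run. Windows of 100 bases in place of 50 left 3 of the 7 Gstm genes with a shared stretch in place of 4.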
